A study of Homo sapiens with 24 samples.

Results

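The lysyl oxidase family was followed through RNA-seq of a pair of clear cell renal cell carcinoma (ccRCC) lines in which PAX8, a renal lineage transcription factor, had been depleted by RNA interference. The family was taken by name as LOX, LOXL1, LOXL2, LOXL3 and LOXL4, 5 of the 26475 genes in the files. The family was chosen by the measured level of LOX, which stood among the most strongly higher genes in the 786-M1A shPAX8 libraries. The values of all 5 genes in 786-M1A shPAX8 against 786-M1A sgNTC18, and the level of LOX in 786-M1A sgNTC18, are therefore given as a description with no test. The difference in LOX between the 786-M1A shPAX8 constructs comes from libraries that entered the choice, and is given in the same way.

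786-M1A and OS-LM1 are metastatic ccRCC lines with VHL mutations, and both were derived from the lines 786-O and OS-RC2 and grown in RPMI with fetal bovine serum. Each line carried either sgNTC18, labelled as a construct and named as a non-targeting guide RNA, or 1 of the PAX8 short hairpin constructs shPAX8-1 and shPAX8-2. There were 4 replicate libraries in each of the 6 groups and 24 in all. The labels do not say whether replicates were separate cultures, so p-values measure the spread between these libraries, which may be technical. sgNTC18 is not a hairpin. No hairpin control was analysed here, and the hairpin plasmids listed in the study's methods are doxycycline-inducible. PAX8 depletion, a hairpin as such, any doxycycline exposure and the handling of the sgNTC18 cells cannot be told apart in a comparison with sgNTC18. The comparison of shPAX8-1 with shPAX8-2 does not use the sgNTC18 libraries.

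Lysyl oxidases are copper-dependent enzymes, secreted for the most part, that oxidize lysine side chains of collagens and elastin and so start the cross-linking of extracellular matrix. LOX and LOXL1 are made as proenzymes that bone morphogenetic protein 1 and related tolloid proteases cleave, and LOXL1 is best known for elastic fibres. LOXL2, LOXL3 and LOXL4 carry scavenger receptor cysteine-rich domains instead of a propeptide of that kind, and LOXL2 also acts on the collagen IV of basement membranes. LOX and LOXL2 are known targets of the hypoxia-inducible factors, which are stabilized in cells that lack VHL.

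The guide strands of the hairpins are shown because the contrast between them carries most of the tested results. Each runs 5′ to 3′, with the seed (bases 2 to 8) in capitals.
shPAX8-1: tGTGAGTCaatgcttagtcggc
shPAX8-2: tAGAGTTGtgttaataatggag
The full complement of each guide was found in transcripts of PAX8 and of no other gene. The longest protein-coding transcript of LOX, LOXL1, LOXL2, LOXL3 and LOXL4 held no match to the complement of either seed, while 14.76% (shPAX8-1) and 20.1% (shPAX8-2) of 19676 protein-coding genes did. This is a letter search of whole transcripts and says nothing of other targets.

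The promoter of LOX is shown because LOX and LOXL1 were the members that were higher with both hairpins in both lines, and that of LOXL1 is shown beside it. The windows run from 250 bases before to 50 after the gene's start (RefSeq, GRCh38.p14). LOX lies at chr5:122063195-122078259 and its window is chr5:122078210-122078509 on the minus strand. LOXL1 lies at chr15:73926462-73952136 and its window is chr15:73926212-73926511 on the plus strand. Capitals mark ACGTG or GCGTG on either strand (CACGT or CACGC when read on the other), the core letters of the hypoxia response element.
LOX: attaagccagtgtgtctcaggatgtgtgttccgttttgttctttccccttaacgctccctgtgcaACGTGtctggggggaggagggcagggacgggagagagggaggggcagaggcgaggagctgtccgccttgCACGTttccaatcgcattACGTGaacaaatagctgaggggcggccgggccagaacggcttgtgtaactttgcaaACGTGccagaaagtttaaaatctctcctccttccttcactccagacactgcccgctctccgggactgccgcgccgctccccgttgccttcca
LOXL1: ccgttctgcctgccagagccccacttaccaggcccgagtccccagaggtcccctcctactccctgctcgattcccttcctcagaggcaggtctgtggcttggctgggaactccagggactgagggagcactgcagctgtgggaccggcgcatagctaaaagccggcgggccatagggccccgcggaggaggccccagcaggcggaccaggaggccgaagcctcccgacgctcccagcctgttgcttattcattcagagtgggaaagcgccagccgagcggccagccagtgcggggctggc
The LOX window held ACGTG at 4 places and GCGTG at 0. Of 35116 RefSeq promoter windows of this length, 21.4% held ACGTG at least once, 36.5% held GCGTG and 0.843% held ACGTG at 4 or more places. A palindrome CACGTG counts on both strands. The LOXL1 window held neither motif. The table has 3 windows for LOX, of which the others held ACGTG at 1 place each, and windows for LOXL3 and LOXL4 that held it at 0. These matches describe letters and not bound sites.

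Library totals ran from 11634419 to 52059375 expected counts, and the sgNTC18 libraries were deeper (median 32029482.5) than the shPAX8 libraries (median 18200166). The members' levels are CPM, read counts scaled to a common library size by TMM, unless TPM, which is also divided by transcript length, is named. Within 786-M1A shPAX8-1, replicates 1 and 2 stood apart from replicates 3 and 4, and hairpin differences in 786-M1A are also given without either pair. The targeted gene fell in both lines, by 3.58 on the log2 scale over both hairpins in 786-M1A (SE 0.12, adjusted p = 5.62e-12, edgeR) and by 1.73 in OS-LM1 (SE 0.10, adjusted p = 9.39e-12, edgeR). PAX8 stood at 341 CPM in 786-M1A sgNTC18, 18.7 in shPAX8-1 and 42.4 in shPAX8-2, and at 260 CPM in OS-LM1 sgNTC18, 78.2 in shPAX8-1 and 79.2 in shPAX8-2. KRT8 and KRT18, markers of renal epithelium, were present in every group, whereas CA9, a ccRCC marker, had 0 counts in the 4 786-M1A sgNTC18 libraries. The fibroblast marker PDGFRB stood at 606 CPM in 786-M1A sgNTC18, whereas DCN and PDGFRA of the same 5-gene list had 0 counts in those 4 libraries. The summed CPM of the 3 endothelial and leukocyte markers was at most 1.02 in any library.

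**Figure D1:**
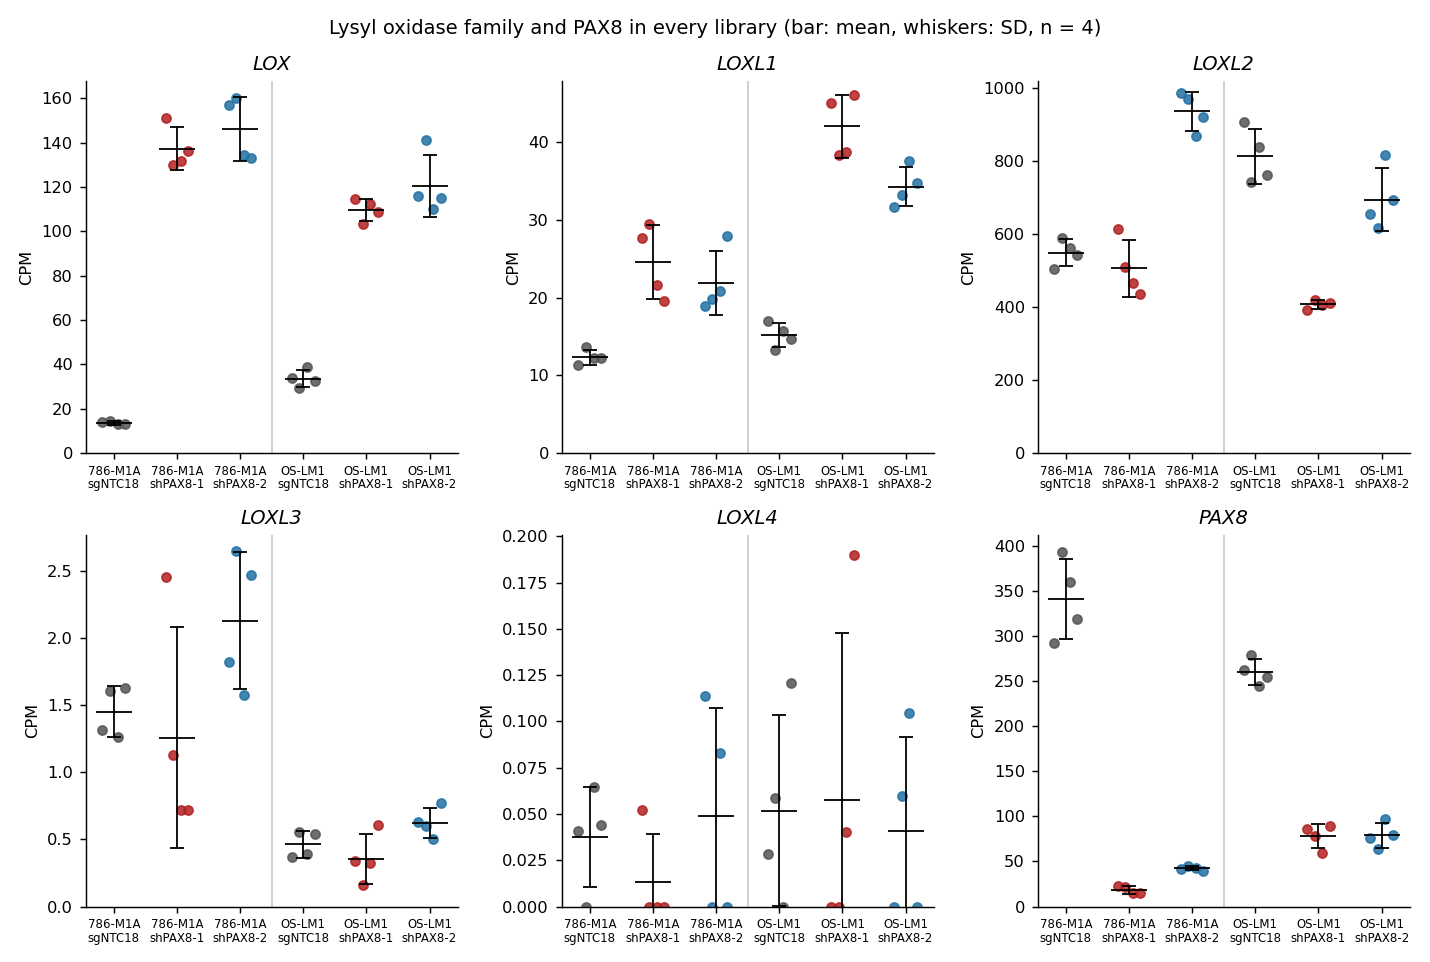
Level of each lysyl oxidase gene and of PAX8 in CPM (linear axes from 0, each panel on its own scale) in the 24 libraries. Points are libraries, horizontal bars are group means and whiskers are SDs (n = 4). LOX is at 12.8 to 14.4 CPM in 786-M1A sgNTC18 and at 130 to 160 in the 786-M1A shPAX8 libraries. LOXL4 does not exceed 0.19 CPM.

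LOXL2 was the predominant family member in both lines. On the TPM scale, which allows comparison between genes, the 5 genes summed to 283 ± 12.03 TPM (SD, n = 4) in 786-M1A sgNTC18 and 397 ± 35.4 TPM in OS-LM1 sgNTC18. LOXL2 gave 94.5% ± 0.183 of this sum in 786-M1A and 94.2% ± 0.292 in OS-LM1, while LOX gave 1.72% ± 0.136 and 2.86% ± 0.258. LOXL1 gave 3.44% ± 0.0843 and 2.85% ± 0.081. LOXL3 gave 0.29% and 0.0679%, and LOXL4 less.

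In the shPAX8 libraries the make-up of the family was different. The share of LOX was 15.9% ± 1.84 (SD, n = 4) in 786-M1A shPAX8-1 and 9.90% ± 0.56 in 786-M1A shPAX8-2, and 14.8% ± 1.02 and 10.8% ± 2.34 in the same groups of OS-LM1. The share of LOXL2 was between 72.9% and 86.6% as a group mean. The family sum itself did not move one way. It was 484 ± 30.8 TPM in 786-M1A shPAX8-2 and 293 ± 43.2 in 786-M1A shPAX8-1, against 378 ± 35.3 in OS-LM1 shPAX8-2 and 261 ± 21.4 in OS-LM1 shPAX8-1. In both lines the sum was lower with shPAX8-1 than with shPAX8-2, with no overlap between libraries. These sums are descriptions with no test.

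**Figure D2:**
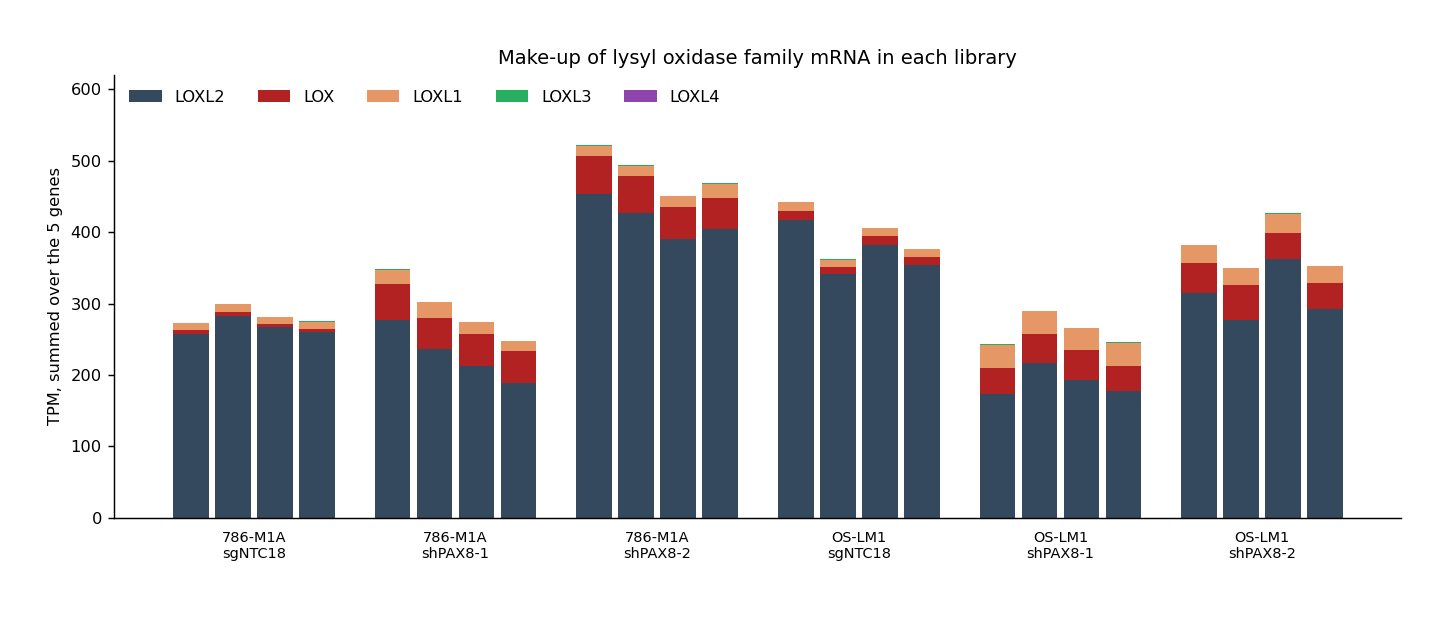
Summed TPM of the 5 lysyl oxidase genes in each of the 24 libraries, 1 bar per library, divided by gene. LOXL2 fills most of every bar. The LOX part is narrow in sgNTC18 (1.72% and 2.86% of the sum) and wider in every shPAX8 group.

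LOX, the founding member, was higher in PAX8-depleted OS-LM1 cells, which the choice of the family did not use. The OS-LM1 sgNTC18 libraries had 33.6, 29.4, 38.6 and 32.4 CPM of LOX. The 4 shPAX8-1 libraries had 114, 103, 112 and 108 CPM, and the 4 shPAX8-2 libraries had 116, 141, 110 and 115 CPM. Every depleted library lay above every sgNTC18 library. In bulk RNA, more cells that express a gene and more RNA per cell cannot be told apart. LOX rose 3.41-fold over both hairpins (log2 fold change 1.77, SE 0.09, adjusted p = 1.39e-12, edgeR's quasi-likelihood test with Benjamini-Hochberg adjustment over 15049 genes). It rose by 1.69 on the log2 scale with shPAX8-1 (SE 0.10, adjusted p = 1.34e-11, edgeR) and by 1.85 with shPAX8-2 (SE 0.10, adjusted p = 4.8e-12, edgeR), and these comparisons share their sgNTC18 libraries. Of the 15049 genes tested in OS-LM1, 73.4% were called in either direction, 36.4% higher and 37.1% lower, so a call by itself does not set LOX apart. For shPAX8-1 alone 71.4% were called (35.6% higher and 35.8% lower), and for shPAX8-2 alone 68.4% (34.3% higher and 34.1% lower). The median absolute log2 fold change over all genes was 0.62.

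The hairpins were compared directly. LOX in OS-LM1 was at 110 ± 4.87 CPM with shPAX8-1 and at 120 ± 14.0 CPM with shPAX8-2 (SD, n = 4 each), and the groups overlapped. The log2 difference of -0.17 (SE 0.10, 95% interval -0.36 to 0.03) did not pass the threshold (adjusted p = 0.21, edgeR), where 29.1% of all genes did (12.4% higher and 16.7% lower with shPAX8-1). In 786-M1A the difference was -0.09 (SE 0.10, 95% interval -0.29 to 0.11), a description since LOX was chosen on these libraries. Of all genes 47.1% passed in that contrast (24.2% higher and 22.9% lower). The intervals are not adjusted for the number of genes. Fold changes ran with the GC content of genes. Those of the measured members and PAX8 were recomputed after a smooth trend in GC content had been removed. So were those over both hairpins for the genes of smallest p in each pathway list. Counts and medians of the lists, and the other genes named below, were not recomputed by list or gene. With the trend removed, LOX was lower with shPAX8-1 past the threshold in OS-LM1, by 0.22 (adjusted p = 0.0336, edgeR). The described difference in 786-M1A was then -0.44.

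In 786-M1A, the line by which LOX was chosen, the sgNTC18 libraries had 13.8, 14.4, 12.9 and 12.8 CPM of LOX. The shPAX8-1 libraries had 151, 130, 132 and 136 CPM, and the shPAX8-2 libraries had 157, 160, 134 and 133 CPM. As a description, the fitted log2 fold change was 3.37 with shPAX8-1 and 3.46 with shPAX8-2, or 10.7-fold over both, and 70.4% of the 14452 genes tested in this line passed the threshold in the same contrast (35.7% higher and 34.7% lower). Replicates 1 and 2 of shPAX8-1 averaged 140 CPM and replicates 3 and 4 averaged 134 CPM, so LOX did not follow the split within that group. Its described hairpin difference was -0.13 without the first pair and -0.05 without the second. Ordered by mean, LOX stood at 13.5 CPM in 786-M1A sgNTC18, 33.5 in OS-LM1 sgNTC18, 110 in OS-LM1 shPAX8-1, 120 in OS-LM1 shPAX8-2, 137 in 786-M1A shPAX8-1 and 146 in 786-M1A shPAX8-2. The first 3 of these groups did not overlap with each other, whereas each of the last 4 overlapped with its neighbour.

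Renal epithelial markers were lower where LOX was higher in 786-M1A, and their part in these values was not tested. In that line 5 of 5 measured markers passed as lower over both hairpins, where 34.7% of all genes were called lower. PAX8, the target of the hairpins, is 1 of the 5 and part of the sums. With shPAX8-2 alone 4 of the 5 passed as lower. The summed CPM of the 6 listed ran from 883 to 1090 in sgNTC18, 181 to 257 in shPAX8-1 and 327 to 350 in shPAX8-2. In OS-LM1 2 of 6 were higher and 2 of 6, PAX8 among them, lower, where 36.4% and 37.1% of all genes were. There the sums ran from 1000 to 1170 in sgNTC18, 900 to 1000 in shPAX8-1 and 1080 to 1390 in shPAX8-2.

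LOXL1, the member best known for elastic fibres, was the other gene that was higher with both hairpins. In OS-LM1 the sgNTC18 libraries had 16.9, 13.3, 15.7 and 14.7 CPM, the shPAX8-1 libraries 45.0, 38.3, 38.8 and 46.1 CPM, and the shPAX8-2 libraries 31.7, 33.1, 37.6 and 34.7 CPM. The 3 groups did not overlap. LOXL1 rose 2.49-fold over both hairpins (log2 fold change 1.32, SE 0.09, adjusted p = 1.01e-10, edgeR), by 1.45 on the log2 scale with shPAX8-1 (adjusted p = 1.51e-10, edgeR) and by 1.19 with shPAX8-2 (adjusted p = 3.23e-09, edgeR). The gap of 0.26 between the hairpins (SE 0.10) was at the edge of the threshold (adjusted p = 0.0494, edgeR) and was lost when any 1 of 5 of the 8 libraries was left out.

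In 786-M1A LOXL1 had 11.3, 13.7, 12.2 and 12.2 CPM in sgNTC18, 27.6, 29.5, 21.7 and 19.6 CPM in shPAX8-1, and 18.9, 19.8, 20.8 and 27.9 CPM in shPAX8-2. All depleted libraries lay above all sgNTC18 libraries, and the fitted log2 fold change of 0.93 over both hairpins is a description. For shPAX8-1 it was 1.02, or 1.69 with the GC trend removed. The hairpin groups overlapped (log2 difference 0.17, SE 0.16, 95% interval -0.16 to 0.50, adjusted p = 0.375, edgeR). LOXL1 is GC-rich (67.6% in its longest transcript) and followed the split within shPAX8-1, at 28.6 CPM in replicates 1 and 2 and 20.6 CPM in replicates 3 and 4. Without replicates 1 and 2 the hairpin difference turned to -0.09 (adjusted p = 0.632, edgeR), and without replicates 3 and 4 it was 0.39 (adjusted p = 0.0715, edgeR). The described fold change for shPAX8-1 was then 0.76 and 1.21. With the GC trend removed the hairpin difference in 786-M1A became 0.78 (adjusted p = 6e-04, edgeR). The antisense gene LOXL1-AS1 overlaps this locus and had 36 to 433 counts a library, and the strand setting of the counting is not given in the sources used here.

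LOXL2, the most abundant member, was lower with shPAX8-1 than with shPAX8-2 in both lines. In OS-LM1 the shPAX8-1 libraries had 392, 419, 405 and 411 CPM and the shPAX8-2 libraries had 654, 615, 816 and 693 CPM, so that every shPAX8-1 library lay below every shPAX8-2 library. In 786-M1A the shPAX8-1 libraries had 615, 510, 465 and 437 CPM and the shPAX8-2 libraries had 986, 971, 868 and 921 CPM, again without overlap. LOXL2 was lower with shPAX8-1 than with shPAX8-2 by 0.80 on the log2 scale in OS-LM1 (SE 0.09, adjusted p = 2.07e-06, edgeR) and by 0.89 in 786-M1A (SE 0.11, adjusted p = 2.58e-05, edgeR), that is 1.74-fold and 1.85-fold. The size of this gap did not differ detectably between the lines (difference 0.11, SE 0.14, 95% interval -0.18 to 0.41, adjusted p = 0.588, edgeR), where 27.2% of all 15665 genes did. In 786-M1A, across genes, the hairpin difference fell with GC content (Spearman's rho -0.557 over 13048 genes, which are not independent replicates). With the GC trend removed the gap in LOXL2 was 0.50 in 786-M1A (adjusted p = 8.57e-06, edgeR) and 0.69 in OS-LM1 (adjusted p = 6.85e-07, edgeR). Without replicates 1 and 2 of 786-M1A shPAX8-1 it was 1.06, and without replicates 3 and 4 it was 0.73.

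Against sgNTC18, LOXL2 therefore took a different course with each hairpin. The OS-LM1 sgNTC18 libraries had 908, 742, 839 and 762 CPM. LOXL2 fell by 1.02 on the log2 scale with shPAX8-1 (SE 0.09, adjusted p = 5.13e-09, edgeR), to a level below every sgNTC18 library. With shPAX8-2 it fell by 0.22 (SE 0.09, adjusted p = 0.0334, edgeR), the groups overlapped, and with the GC trend removed the direction turned and the call was lost (log2 fold change 0.05, adjusted p = 0.569, edgeR). Over both hairpins it fell by 0.62 (SE 0.08, adjusted p = 3.88e-07, edgeR), or by 0.29 with the GC trend removed. The 786-M1A sgNTC18 libraries had 503, 590, 561 and 543 CPM. As a description, the fitted log2 fold change in 786-M1A was -0.10 with shPAX8-1, where the groups overlapped, and 0.79 with shPAX8-2, where they did not. With the GC trend removed the value for shPAX8-1 was 0.36, and it was -0.27 without replicates 1 and 2 and 0.03 without replicates 3 and 4.

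LOXL3, a minor member known from cartilage and palate development, was measured at 3 to 49 counts a library. In OS-LM1 its mean was 0.464 CPM in sgNTC18, 0.357 in shPAX8-1 and 0.624 in shPAX8-2, and the log2 fold change over both hairpins was 0.03 (SE 0.33, 95% interval -0.66 to 0.72, adjusted p = 0.94, edgeR). LOXL3 had the same direction as LOXL2 between the hairpins, -0.78 in OS-LM1 (SE 0.40, adjusted p = 0.154, edgeR) and -0.75 in 786-M1A (SE 0.35, adjusted p = 0.0878, edgeR), without passing the threshold in either line. In 786-M1A shPAX8-1 the libraries had 2.46, 1.13, 0.722 and 0.718 CPM. Without replicate 1 the 786-M1A difference was -1.31 (adjusted p = 0.0018, edgeR), and without replicates 1 and 2 it was -1.57 (adjusted p = 0.000866, edgeR). Without replicates 3 and 4 it was -0.26 (adjusted p = 0.611, edgeR), so its size rested on which of these libraries were kept. LOXL4 had 0 to 5 counts a library, did not pass the count filter and could not be compared at this depth.

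Without hairpins the lines differed in their levels of the family, and 63% of all genes passed the threshold in that contrast, 32% higher and 31% lower in OS-LM1. LOXL2 was higher in OS-LM1 sgNTC18 than in 786-M1A sgNTC18 by 0.57 on the log2 scale (SE 0.10, adjusted p = 2.16e-05, edgeR), at 813 ± 76.1 against 549 ± 36.2 CPM (SD, n = 4 each). LOXL3 was lower by 1.63 (SE 0.35, adjusted p = 0.000205, edgeR), at 0.464 against 1.45 CPM. LOXL1 was at 15.1 and 12.3 CPM, the groups overlapped, and the difference of 0.30 (SE 0.13) did not pass (adjusted p = 0.054, edgeR). With the GC trend removed it was 0.98 and passed (adjusted p = 1.11e-06, edgeR), and by DESeq2 it passed at 0.30 (adjusted p = 0.0481). That of LOX, 33.5 against 13.5 CPM, has no test.

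LOX and LOXL1 varied together over the 24 libraries, and LOXL2 and LOXL3 followed neither closely. The Pearson correlation of log2 CPM was 0.767 for LOX and LOXL1, 0.024 for LOX and LOXL2, -0.322 for LOXL1 and LOXL2, -0.036 for LOX and LOXL3, -0.374 for LOXL1 and LOXL3 and 0.388 for LOXL2 and LOXL3. These are descriptions over 24 libraries that fall into 6 groups. Of 9362 genes, TNFRSF10D, a decoy receptor for the death ligand TRAIL, was the gene most like LOX (r = 0.98). It stood at 19.8 CPM in 786-M1A sgNTC18, 58.3 in OS-LM1 sgNTC18, 115 in OS-LM1 shPAX8-1 and 161 in 786-M1A shPAX8-1, and was followed by RPN2, a subunit of the oligosaccharyltransferase complex, CTDSP2, the histone demethylase KDM5B and the ion exchanger SLC9A7 (r = 0.97 to 0.98).

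The genes most like LOXL1 were TNC, which encodes the matrix glycoprotein tenascin C (r = 0.96), the mucin MUC13 (r = 0.95) and GSTM4 (r = 0.94). TNC rose from 67.3 CPM in OS-LM1 sgNTC18 to 366 in shPAX8-1 and 389 in shPAX8-2. Those most like LOXL2 were FAM168A (r = 0.93), the fucosyltransferase FUT11 (r = 0.91) and GGT7 (r = 0.89). FUT11 stood at 26.3 CPM in 786-M1A shPAX8-1 and 42.0 in 786-M1A shPAX8-2. For LOXL3 they were RPL36, PNKD and TMEM8B (r = 0.92 to 0.93).

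Genes that mature or assist lysyl oxidases moved in both directions in OS-LM1 with shPAX8. Of 12 genes on that list 11 were measured, of which 6 rose, 4 fell and 1 did not pass, with a median log2 fold change of 0.35 against -0.01 over all genes, of which 36.4% were called higher and 37.1% lower. The hairpins disagreed for some. POSTN (periostin), counted as risen, went from 1.67 CPM to 9.0 with shPAX8-1 and to 0.729 with shPAX8-2, and passed in opposite directions (adjusted p = 2.73e-09 and 0.00015, edgeR). PCOLCE2, which enhances procollagen processing, rose 6.22-fold (3.58 ± 0.449 CPM in sgNTC18, adjusted p = 9.8e-14, edgeR) and differed between the hairpins, at 33.4 CPM with shPAX8-1 and 15.2 with shPAX8-2 (adjusted p = 4.43e-07, edgeR). EFEMP2 (fibulin 4), which links LOX to tropoelastin, rose 1.82-fold (adjusted p = 1.47e-07, edgeR). TLL2, a tolloid protease, fell by 1.66 on the log2 scale (adjusted p = 2.69e-08, edgeR), while BMP1 rose by 0.35 (adjusted p = 0.00518, edgeR) over both hairpins and did not pass with shPAX8-1 alone (adjusted p = 0.658, edgeR). Of the copper transporters, ATP7A, which loads secreted cuproenzymes, fell by 0.68 (adjusted p = 7.15e-06, edgeR) and SLC31A1, the uptake channel, rose by 0.60 (adjusted p = 7.14e-07, edgeR).

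Among the fibrillar collagens, substrates of LOX, COL1A1 and COL5A2 were higher with both hairpins in OS-LM1. Of 11 genes 5 passed the count filter and 5 rose over both hairpins, with a median log2 fold change of 1.95, where 36.4% of all genes were called higher. With shPAX8-1 alone 4 rose, and COL27A1 stood at 15.96 CPM in sgNTC18 and 16.28 CPM with shPAX8-1 (adjusted p = 0.995, edgeR). A gene that is silent in sgNTC18 passes the filter only if it is present with shPAX8, so this count is not one over all collagens. COL3A1 and COL5A3 had at most 3 and 9 counts in an OS-LM1 sgNTC18 library and passed through the shPAX8 libraries. Their direction was fixed, so the count and the median are not read against the share over all genes. COL1A1 went from 16.2 ± 2.35 CPM in sgNTC18 to 102 ± 9.73 with shPAX8-1 and 166 ± 47.2 with shPAX8-2 (SD, n = 4), or 7.95-fold over both (adjusted p = 2.4e-10, edgeR). COL5A2 went from 54.0 ± 1.14 to 361 ± 70.9 and 123 ± 8.33 CPM (adjusted p = 1.89e-12, edgeR). COL3A1 had 0 to 3 counts in a sgNTC18 library, 264 to 381 with shPAX8-1 and 46 to 158 with shPAX8-2. In 786-M1A 5 collagens were measured and 4 passed as higher, where 35.7% of all genes were called higher. Of these 4, COL5A1 and COL11A2 had at most 4 and 14 counts in a 786-M1A sgNTC18 library. They passed the filter through the shPAX8 libraries, so their direction was fixed. COL1A1 went from 3.51 CPM to 6.62 with shPAX8-1 and 9.43 with shPAX8-2.

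The summed fibroblast markers were higher beside the collagens in OS-LM1, and their part in these values was not tested. DCN, PDGFRA and PDGFRB had at most 5, 3 and 9 counts in an OS-LM1 sgNTC18 library and passed the count filter through the shPAX8 libraries, so their direction was fixed and no count of risen markers is read. LUM rose with shPAX8-1 (adjusted p = 5.59e-06, edgeR) and did not pass with shPAX8-2 (adjusted p = 0.267, edgeR). THY1 did not pass the filter, at 0.261 CPM in sgNTC18, 0.0412 in shPAX8-1 and 0.0467 in shPAX8-2. The 5 markers had sums of 0.934 to 1.26 CPM in sgNTC18, 3.6 to 5.3 CPM in shPAX8-1 and 2.15 to 2.8 CPM in shPAX8-2. Of these markers, PDGFRA and DCN had at most 17 and 24 counts in an OS-LM1 library. In 786-M1A the sums were lower with shPAX8-1, at 198 to 417 CPM against 534 to 723 in sgNTC18. With shPAX8-2 they ran from 663 to 882 CPM and overlapped with sgNTC18.

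Elastic fibre genes were mixed in OS-LM1. Of 14 genes 9 were measured, 6 rose, 2 fell and 1 did not pass, where 36.4% of all genes were called higher and 37.1% lower. MFAP2 and EMILIN2, counted as risen, had at most 10 and 15 counts in an OS-LM1 sgNTC18 library and passed the filter through shPAX8 libraries. EMILIN1, counted as fallen, had at most 5 counts in an OS-LM1 shPAX8 library and passed through sgNTC18, with 17 to 38 counts. The direction of these genes was fixed by the filter, so the counts are not ones over all elastic fibre genes. LTBP3, counted as risen, did not pass with shPAX8-1 alone (adjusted p = 0.801, edgeR). FBN1, which encodes the microfibril protein fibrillin 1, rose from 34.6 ± 0.792 to 203 ± 17.99 CPM with shPAX8-1 and 142 ± 14.8 CPM with shPAX8-2 (adjusted p = 1.82e-14, edgeR). LTBP4, a latent TGF-β binding protein of elastic fibres, fell by 2.92 on the log2 scale (adjusted p = 6.6e-14, edgeR), and LTBP2 rose 2.13-fold (adjusted p = 1.13e-06, edgeR). Elastin itself did not pass the filter there, with 0 to 10 counts a library. In 786-M1A FBN1 stayed at 11.3 to 12.5 CPM as a group mean, while ELN and FBLN2 had at most 4 and 5 counts in a sgNTC18 library and up to 35 and 80 in a shPAX8 library, through which they passed the count filter.

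Genes of collagen modification and folding, most of which act inside the cell before lysyl oxidases, were more often called lower than higher in OS-LM1. All 13 were measured, 3 rose, 9 fell and 1 did not pass, with a median log2 fold change of -0.45, where 37.1% of all genes were called lower and 36.4% higher. With shPAX8-2 alone 4 rose and 7 fell. PPIB, counted as fallen, stood at 534 CPM in sgNTC18, 323 with shPAX8-1 and 640 with shPAX8-2, and passed in opposite directions (adjusted p = 4.89e-08 and 0.00487, edgeR). The genes that rose over both hairpins were P4HA1, the catalytic subunit of prolyl 4-hydroxylase, which rose 3.25-fold from 69.5 ± 5.36 CPM (adjusted p = 1.99e-12, edgeR), CRTAP, a partner of prolyl 3-hydroxylase, which rose by 0.32 on the log2 scale (adjusted p = 0.000365, edgeR), and PLOD2, the telopeptide lysyl hydroxylase that prepares lysines for cross-linking, which rose 2.06-fold from 546 ± 41.7 CPM (adjusted p = 9.82e-10, edgeR). The transglutaminase TGM2, which joins proteins by another type of cross-link, fell by 0.99 on the log2 scale (adjusted p = 2.78e-08, edgeR). In 786-M1A 8 of the 13 were called higher and 1 lower over both hairpins, where 35.7% and 34.7% of all genes were. With shPAX8-1 alone 6 were higher and 3 lower, and with shPAX8-2 alone 11 were higher and 1 lower. P4HB and PPIB passed as lower with shPAX8-1 and as higher with shPAX8-2. Of the 14452 genes tested in 786-M1A, 10199 were called in either direction with shPAX8-1 and 9028 with shPAX8-2. P4HA1 and PLOD2 were higher there too, at 77.9 against 264 CPM and 287 against 688 CPM, and TGM2 was lower, at 2262 against 838 CPM, over both hairpins.

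**Figure D3:**
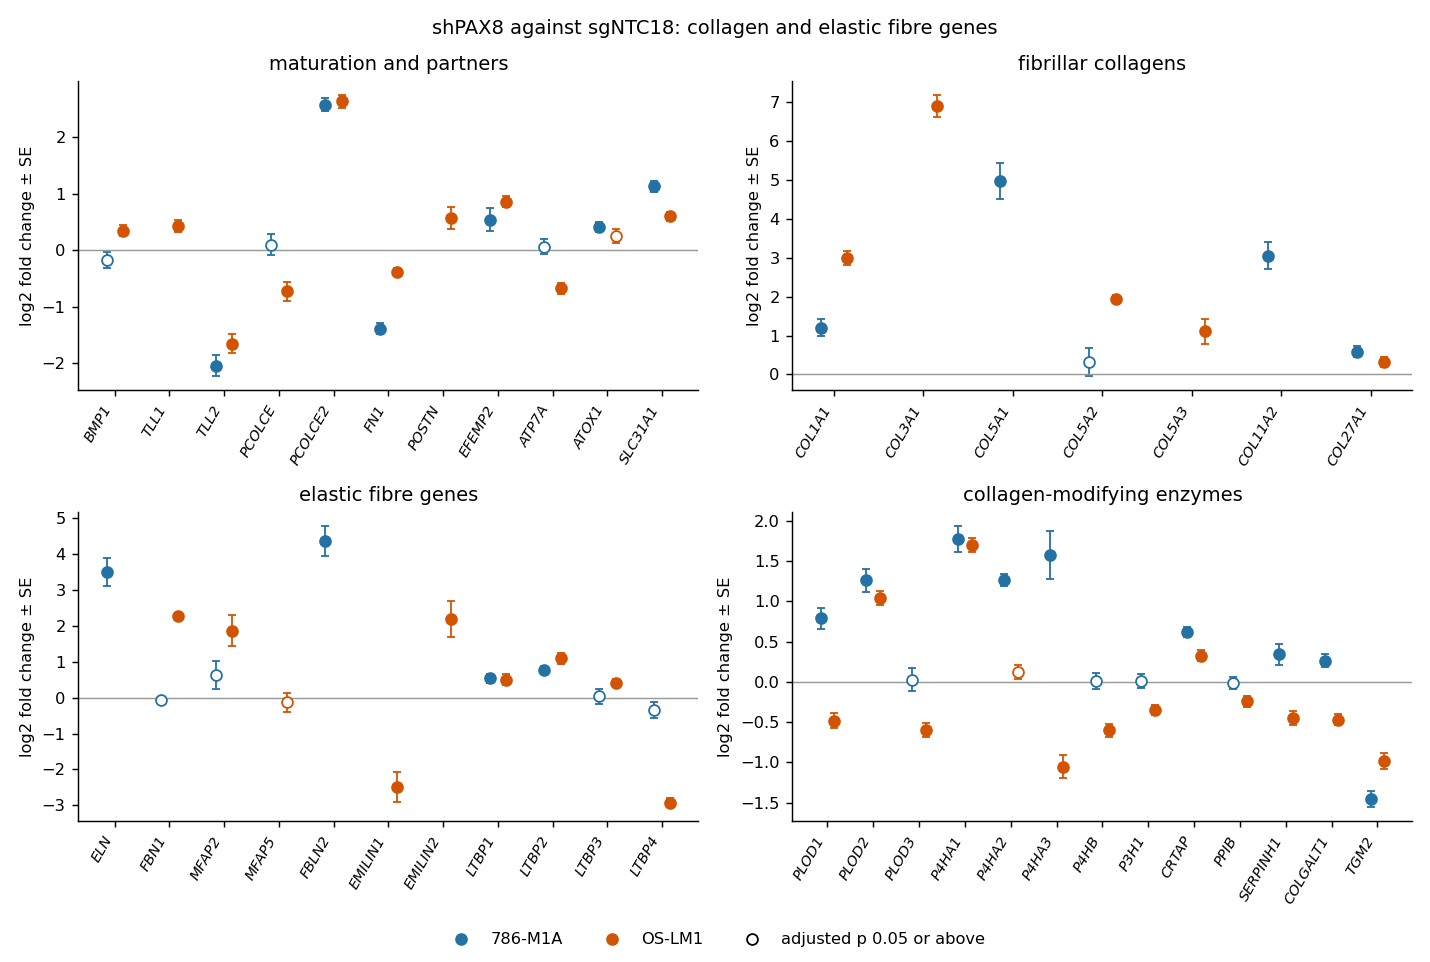
Log2 fold changes (y axis, ± SE from edgeR) of shPAX8 over both hairpins against sgNTC18 for the measured genes of 4 lists, in 786-M1A (blue) and OS-LM1 (orange). Open points did not pass an adjusted p of 0.05. P4HA1, PLOD2 and PCOLCE2 are above 0 and TGM2 and TLL2 below 0 in both lines, while COL3A1 was measured in OS-LM1 and not in 786-M1A. The fitted value of a gene with few or no counts in sgNTC18, such as COL3A1, depends on the prior count and is no measure of size.

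Of the other copper amine oxidases, AOC2 was the one measured in OS-LM1, at 0.785 CPM in sgNTC18 and 0.639 over both shPAX8 groups (log2 fold change -0.26, SE 0.31, adjusted p = 0.469, edgeR). In 786-M1A AOC2 stood at 0.831 CPM in sgNTC18, 6.92 in shPAX8-1 and 4.55 in shPAX8-2.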

How the data were processed

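The deposited values are RSEM expected counts per gene and TPM, without further normalization of the expected counts; the authors used Bowtie2 and RSEM on hg38 per the submitters' processing notes, with versions, annotation release and strand setting not given in the sources used here. The labels name a KAPA stranded poly(A) kit and the study's methods Lexogen kits. After rounding to whole numbers, R 4.3.3 was used with edgeR 4.0.16 (filterByExpr, TMM, robust quasi-likelihood, Benjamini-Hochberg, adjusted p under 0.05), in 1 fit per line and 1 of all 24 libraries for contrasts between lines. SEs are the absolute log2 fold change divided by the square root of F. CPM uses TMM library sizes, and log2 CPM a prior count of 2. DESeq2 1.42.0 was an alternative. The members and gene lists were chosen with earlier results of these data known.

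Named genes were the members, PAX8, the 3 genes of each pathway list with the smallest p in OS-LM1, and the 5 (LOX) or 3 genes of highest correlation, among genes with a mean log2 CPM of at least 3. BMP1, ATP7A, SLC31A1, POSTN, COL27A1, ELN, FBLN2, LTBP3, CRTAP, PPIB and the marker genes were named after their values were seen. Replicate pairs differed by more than sampling noise (chi-square per gene 3.58 to 83.15 over 36 pairs). The edgeR step was tested on simulated data for OS-LM1 shPAX8 against sgNTC18 over 14499 genes. Of 70 genes with a simulated 2-fold change 95.7% were recovered, and of 62 with a 1.5-fold change 71%. The simulation left 14301 genes unchanged, whereas 73.4% of genes were called in the real contrast. It therefore does not test the normalization where most genes change. Alternatives were size factors, filter, tool, threshold, replicate block, GC trend and leaving out libraries.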

Additional observations from a re-analysis of the deposited data

Results flagged for a closer look

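The effect of the hairpins on PAX8 itself differed between the lines. PAX8 was lower with shPAX8-1 than with shPAX8-2 by 1.18 on the log2 scale in 786-M1A, and the hairpins were within 0.05 of each other in OS-LM1 (log2 difference -0.05, SE 0.12). The difference between these differences was 1.16 (SE 0.20, adjusted p = 0.00015, edgeR), lower in 4 of 4 786-M1A shPAX8-1 libraries than in any shPAX8-2 library. The gap in LOXL2 between the hairpins was 0.89 in 786-M1A and 0.80 in OS-LM1. In 30 groups of 4 libraries (LOX, LOXL1, LOXL2, LOXL3 and PAX8 in 6 groups), 0 held a library far from the others by Dixon's test, where chance flags about 1 in 20 groups.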

How the results depend on the processing

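In OS-LM1 over both hairpins, removing the GC trend changed the log2 rise of LOX from 1.77 to 1.46 and that of LOXL1 from 1.32 to 1.75. The described LOX value for 786-M1A shPAX8-1 went from 3.37 to 2.93. The rises of LOX and LOXL1 in OS-LM1 kept their direction and call under every alternative run, as did the fall of LOXL2 with shPAX8-1 and over both hairpins and its gap between hairpins in both lines. The fall of LOXL2 with shPAX8-2 in OS-LM1 did not. It was 0.0506 with the GC trend removed, -0.22 with the replicate block (adjusted p = 0.053, edgeR) and -0.22 at an adjusted p of 0.01, and ran from -0.30 to -0.17 with single libraries left out, losing the call without sgNTC18 replicates 1 or 3 or shPAX8-2 replicates 1, 2 or 4. The LOXL1 gap between hairpins in OS-LM1 lost its call with no filter (0.30), the replicate block (0.26), an adjusted p of 0.01 (0.26) and without shPAX8-2 replicates 1, 2 or 4 or shPAX8-1 replicates 1 or 4 (0.21 to 0.33). With the GC trend removed, gaps between hairpins passed for LOX in OS-LM1 (-0.22) and for LOXL1 in 786-M1A (0.78), and the described LOX gap in 786-M1A was -0.44. LOXL1 then passed between the lines (0.98). It also did with DESeq2 (0.30) and without sgNTC18 replicate 2 of 786-M1A or of OS-LM1 (0.24 to 0.36 over all single libraries left out). The LOXL3 gap in 786-M1A passed without shPAX8-1 replicates 1 and 2 (-1.57), was -0.26 without replicates 3 and 4 (adjusted p = 0.611, edgeR) and ran from -1.31 to -0.56 with single libraries left out. The cause was not tested. Counts of calls moved by over 1.5 times at an adjusted p of 0.01 between hairpins (OS-LM1 2703 for 4378, 786-M1A 4329 for 6803) and for their difference between lines (2449 for 4264), and without 786-M1A shPAX8-1 replicates 3 and 4 (3869 for 6803 and 2579 for 4264) or replicates 1 and 2 (6817 for 4264). The deviations of same-numbered replicates from their group means correlated at -0.319 to 0.271, with 6 of 24 above 0.1. Between the hairpins in 786-M1A these correlations ran from 0.0365 to 0.271, all positive. Differently numbered pairs were not set beside them, so whether the numbers pair libraries was not settled. The replicate block gave 3642 to 10718 calls a comparison. LOXL3 and LOXL4 are limited by counts.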
